A study of Mus musculus with 2 samples.

Results

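The corticotropin receptor and the protein kinase A (PKA) pathway behind it were described in long-read RNA sequencing of mouse adrenal gland, through 10 genes: Mc2r, Mrap, Prkar1a, Prkar1b, Prkar2a, Prkar2b, Prkaca, Prkacb, Pde8a and Creb1. They were chosen by name, as rows of both count tables whose gene was classed as known and carried one of these symbols. All 10 were read in both libraries, out of 16745 annotated genes with a read in either one. Long-read sequencing follows a cDNA molecule along its length, so a read can be placed on a transcript structure. The series is 1 group of 2 libraries, labelled biological replicates 1 and 2, from wild-type C57BL/6J adrenal tissue supplied by The Jackson Laboratory. The 2 biosamples share 1 donor entry, a text label calls the tissue male while the sex field says not collected, and the age is given as unknown. There was no treatment or genotype contrast, so the comparisons below set replicate 1 against replicate 2. Their p-values ask whether reads differ between these 2 libraries beyond counting error. They measure no spread between samples, and a difference may be technical.

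Corticotropin from the pituitary binds MC2R on adrenal cortical cells. The receptor reaches the cell surface only with the help of MRAP, and through a stimulatory G protein it raises cyclic AMP. Cyclic AMP binds the regulatory subunits of PKA and frees the catalytic subunits, which phosphorylate CREB and other proteins and so drive steroid synthesis; phosphodiesterases end the signal by breaking cyclic AMP down. In humans, inactivating PRKAR1A variants and activating PRKACA variants are known causes of adrenal cortisol excess.

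Replicate 1 held 848782 reads and replicate 2 held 545229, so that 1 read was worth 1.18 and 1.83 CPM (counts scaled to a library total of 1000000). The median read of a known transcript came from a transcript of 1648 bases in replicate 1, against 2740 bases in replicate 2. All 5 cortex markers and all 5 medulla markers were read in both libraries, at summed levels of 44069 and 77551 CPM for cortex and 10093 and 23122 CPM for medulla. None of the 5 kidney markers had a read. Of the 6 adipocyte markers, 4 were read in replicate 1 (185 reads, 218 CPM in sum) and 2 in replicate 2 (25 reads, 45.9 CPM), with Lep and Ucp1 at 0 in both. Endothelial markers summed to 192 and 961 CPM and macrophage markers to 1044 and 330.1 CPM. Single markers did not all follow these sums. Th (2831 and 1489 CPM) and Pnmt (694 and 160) were higher in replicate 1, while Dbh, Chga and Chgb were lower. Csf1r (20.0 and 66.0) and Adgre1 (13.0 and 47.7) were lower, while Lyz2, Cd74 and C1qa were higher. Of the endothelial markers only Cdh5 (6 and 2 reads) was higher. Because the tissue was read in bulk, fewer cells of a type and less RNA per cell cannot be told apart in any level below.

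The 10 genes together took 1520 reads in replicate 1, which is 0.179% of the library (95% exact Clopper-Pearson interval 0.170 to 0.188), and 1514 reads in replicate 2, which is 0.278% (0.264 to 0.292). The mean was 0.228% ± 0.0697 (SD, n = 2). The regulatory subunit genes Prkar1a and Prkar2b held most of these reads. By CPM, Prkar1a ranked 173rd among all genes in replicate 1 and 68th in replicate 2, and Prkar2b ranked 293rd and 94th. By CPM per kilobase of transcript, Prkar1a ranked 583rd in replicate 1 and 113th in replicate 2, and Prkar2b ranked 822nd and 152nd. Intervals on levels and shares cover counting error only, since each is computed within 1 library and takes reads as independent. The reads carry no stated molecular identifiers, so they could not be checked for copies of 1 molecule.

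**Figure D1:**
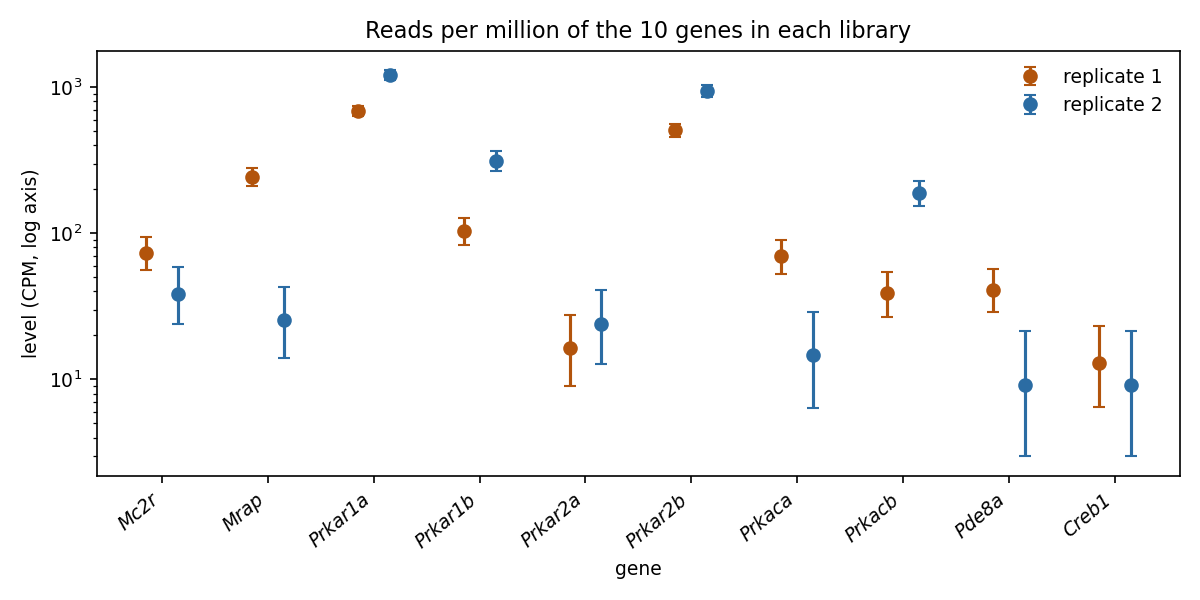
Level of each of the 10 genes in CPM (log axis) in replicate 1 and replicate 2, with exact Poisson 95% intervals that cover counting error. The intervals of the libraries are apart for Mrap, Prkar1a, Prkar1b, Prkar2b, Prkaca, Prkacb and Pde8a, whereas they overlap for Mc2r, Prkar2a and Creb1.

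The receptor gene Mc2r (chromosome 18, 68406907 to 68429320, minus strand, mm10) had 62 reads in replicate 1 and 21 in replicate 2, or 73.0 CPM (95% exact Poisson interval 56.0 to 93.6) and 38.5 CPM (23.8 to 58.9). The level was higher in replicate 1, with a log2 ratio of 0.91 after adding 1 CPM (Fisher's exact test of the gene's reads against all other reads, Benjamini-Hochberg adjusted p = 0.0165). Once the dependence of the ratio on transcript length, described below, was taken out, the log2 ratio was -0.16 (exact binomial test, adjusted p = 0.812). The annotated form Mc2r-201 has 3 exons and 1631 bases, and its whole coding region lies in the last exon (68407333 to 68408220). Structures that spliced into this exon and held the coding region whole took 31 reads in replicate 1 and 10 in replicate 2. Reads of a single exon numbered 26 and 5. Of the 26, 21 were put in 1 model that the deposited annotation draws as 1 base long, so its place says nothing of what those reads cover. Spliced reads without the coding exon numbered 3 and 6. The unannotated exon with the most reads (68406299 to 68406453) lies past the annotated 3′ end and was in 3 and 5 reads, and the next (68422116 to 68422172) in 5 and 2. Mc2r thus had a known structure in 40.3% of reads in replicate 1 and 33.3% in replicate 2, against 72.2% and 74.5% over the 10 genes.

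The opposite strand at Mc2r held more reads than its own in replicate 1. Models classed as antisense to Mc2r held 87 reads in replicate 1 and 5 in replicate 2, and 87 and 4 of these were spliced. In replicate 1, 80 of the reads belonged to a plus-strand model of 3 exons whose introns begin and end at the same bases as those of Mc2r-201, and in replicate 2 a model with the same introns had 2 reads. By comparison, Mc2r-201 itself held 25 and 7 reads. Over all annotated genes, opposite-strand models with every intron of an annotated transcript had at least 1 read for 26 genes in replicate 1 and 33 in replicate 2. Mc2r had the most such reads of any gene in replicate 1 and ranked 5th in replicate 2. It was also the 1 gene, of 2 with at least 10 such reads in replicate 1, where they exceeded the reads of known structures. With these reads counted towards it, Mc2r had 142 reads (167 CPM) and 23 reads (42.2 CPM), and the log2 ratio was 1.96 (Fisher's exact test, adjusted p = 9.82e-12), or 0.88 with the length trend removed (exact binomial test, adjusted p = 0.0121). Whether the library kit kept strand is not given in the sources used here, and the part of strand assignment in these counts was not tested.

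Mrap (chromosome 16, 90738207 to 90749785, plus strand) encodes the accessory protein that carries MC2R to the membrane. It had 207 reads in replicate 1 and 14 in replicate 2, or 244 CPM (212 to 279) and 25.7 CPM (14.0 to 43.1). The level was higher in replicate 1 by a log2 ratio of 3.20 (Fisher's exact test, adjusted p = 5.12e-28), which fell to 0.15 with the length trend removed (exact binomial test, adjusted p = 0.812). Mrap is the shortest of the 10 genes, at 1001 bases. Mrap-201, the coding form, took 185 and 10 reads, while the nonsense-mediated decay forms Mrap-204 and Mrap-202 took 6 and 1 and 4 and 1. The opposite strand of Mrap carried 149 reads in replicate 1 and 5 in replicate 2. These differ from those at Mc2r: none of the 149 was spliced and none lay over an annotated exon of Mrap. In the mouse, Mc2r and Mrap are also known from adipocytes, and the adipocyte marker Plin1, which cortical cells share, had 72 and 23 reads, Adipoq 14 and 0 and Cfd 85 and 0. Their part in the levels of Mc2r and Mrap was not tested.

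**Figure D2:**
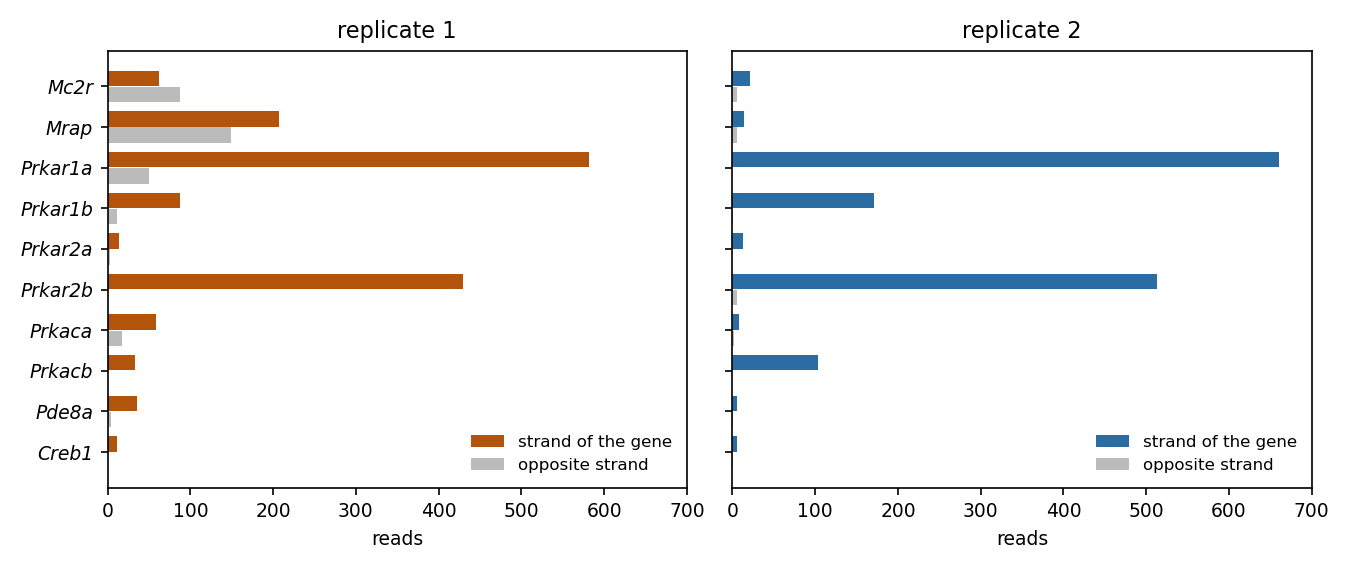
Reads assigned to each gene (coloured bars) and to models on its opposite strand (grey bars) in replicate 1 and replicate 2. In replicate 1 the opposite strand held 87 reads at Mc2r, above the 62 of the gene, and 149 at Mrap, whereas all 10 genes together had 21 in replicate 2.

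The regulatory subunits hold the catalytic subunits inactive through a short inhibitor stretch. Type I subunits (Prkar1a, Prkar1b) are known to carry a pseudosubstrate there, with no residue the kinase can phosphorylate, and type II subunits (Prkar2a, Prkar2b) carry a serine that it does phosphorylate. The coding bases of this stretch are shown because they are what separates the types. Reads assigned to a structure that holds the stretch are counted below. Such counts, like those of complete coding regions, rest on the deposited structures and not on the span of each read. Each line gives 51 bases of the most-read form from GENCODE M21, 5′ to 3′ on the coding strand, with the 5 codons of the stretch in capitals.
Prkar1a-201 (chr11:109660089-109660139, plus): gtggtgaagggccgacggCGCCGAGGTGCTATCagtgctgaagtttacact
Prkar1b-201 (chr5:139108514-139108564, minus): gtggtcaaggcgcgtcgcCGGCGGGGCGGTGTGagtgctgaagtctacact
Prkar2a-201 (chr9:108714278-108716882, plus, across an intron): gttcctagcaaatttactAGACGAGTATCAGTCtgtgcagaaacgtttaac
Prkar2b-202 (chr12:31993764-32038652, minus, across an intron): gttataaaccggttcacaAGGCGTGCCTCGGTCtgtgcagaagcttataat
The first 2 codons of each stretch code for arginine. The fourth is GCT (alanine) in Prkar1a and GGT (glycine) in Prkar1b, against the serine codons TCA in Prkar2a and TCG in Prkar2b. The stretch starts at codon 96 in both type I genes, at codon 94 in Prkar2a and at codon 109 in Prkar2b. Over the whole coding region, Prkar1a and Prkar1b were identical at 74.7% of aligned bases and Prkar2a and Prkar2b at 70.1%, while type I and type II genes were identical at 54.3% to 56.3%.

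Prkar1a (chromosome 11, 109649405 to 109669656, plus strand), the subunit altered in human adrenal disease, had 582 reads in replicate 1 and 661 in replicate 2. Its levels were 686 CPM (631 to 744) and 1212 CPM (1122 to 1308), with a mean of 949 ± 372 (SD, n = 2). On total reads it was lower in replicate 1 (log2 ratio -0.82, Fisher's exact test, adjusted p = 1.33e-22), and with the length trend removed it was higher (0.68, exact binomial test, adjusted p = 2.35e-15). Of its reads, 553 (95.0%) in replicate 1 and 650 (98.3%) in replicate 2 were assigned to structures with the inhibitor codons. Structures with the complete coding region of an annotated form took 543 and 640.

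Prkar2b (chromosome 12, 31958476 to 32061296, minus strand), the type II subunit also known as the main one of adipose tissue and brain, followed with 429 and 513 reads. These were 505 CPM (459 to 556) and 941 CPM (861 to 1026), a mean of 723 ± 308 (SD, n = 2). It too was lower in replicate 1 on total reads (log2 ratio -0.90, Fisher's exact test, adjusted p = 1.96e-20) and higher with the length trend removed (0.64, exact binomial test, adjusted p = 2.26e-10). Structures with the inhibitor codons took 362 reads (84.4%) of replicate 1 and 468 (91.2%) of replicate 2. The part of adipose tissue in its level was not tested; the adipocyte markers had 185 and 25 reads in sum.

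Prkar1b (chromosome 5, 139017306 to 139150001, minus strand), known mainly as a neural type I subunit, had 88 reads in replicate 1 and 171 in replicate 2. Its levels of 104 CPM (83.2 to 128) and 314 CPM (268 to 364) were apart, lower in replicate 1 by a log2 ratio of -1.59 (Fisher's exact test, adjusted p = 2.68e-17) that was -0.24 with the length trend removed (exact binomial test, adjusted p = 0.322). Prkar2a (chromosome 9, 108689314 to 108750436, plus strand) was the least read regulatory gene, with 14 and 13 reads, or 16.5 CPM (9.02 to 27.7) and 23.8 CPM (12.7 to 40.8). Its difference did not pass on total reads (log2 ratio -0.51, Fisher's exact test, adjusted p = 0.404) or with the length trend removed (0.57, exact binomial test, adjusted p = 0.481). Of Prkar2a's reads, 9 and 6 were assigned to structures with the inhibitor codons.

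Type I genes made up 670 of 1113 regulatory subunit reads in replicate 1, which is 60.2% (57.3 to 63.1), and 832 of 1358 in replicate 2, which is 61.3% (58.6 to 63.9). The share had a mean of 60.7% ± 0.756 (SD, n = 2), and the intervals of the libraries overlap, although Prkar1a, Prkar1b and Prkar2b each differed in level on total reads. Each read was taken as 1 molecule whatever its length. On the alternative scale of reads per kilobase of transcript, the share was 61.4% and 62.9%. On reads of known models it was 61.0% (57.5 to 64.4) in replicate 1 and 55.0% (51.9 to 58.1) in replicate 2, where the model with the upstream Prkar1a exon, described next, is left out.

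Prkar1a was read from 2 first exons that share the rest of the gene. Of reads whose first junction is an annotated first junction, 433 of 538 in replicate 1 (80.5%, 76.9 to 83.8) and 422 of 638 in replicate 2 (66.1%, 62.3 to 69.8) began in the first exon of Prkar1a-201, at 109650921. A further 105 (19.5%, 16.2 to 23.1) and 212 (33.2%, 29.6 to 37.0) used an upstream exon that starts at 109650575 and ends at 109650624. Nearly all of these, 104 and 207 reads, belonged to 1 model of 11 exons and 3256 bases that runs to the same 3′ end. The deposited tables class it as an incomplete splice match (ISM), meaning that its introns are part of those of an annotated transcript, here Prkar1a-203. Its first exon is also where the short annotated form Prkar1a-202 begins. In Prkar1a-203 the same bases lie in the second exon (109650441 to 109650624). Whether reads of the model lack the 5′ end of that form was not tested. Both exons join the second exon at 109653779, ahead of the start codon at 109653785, so the coding region of 1143 bases was the same. The upstream exon was thus the less used in both libraries, and its share was lower in replicate 1. That difference was not tested, because the 2 exons were picked out after their values were seen.

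**Figure D3:**
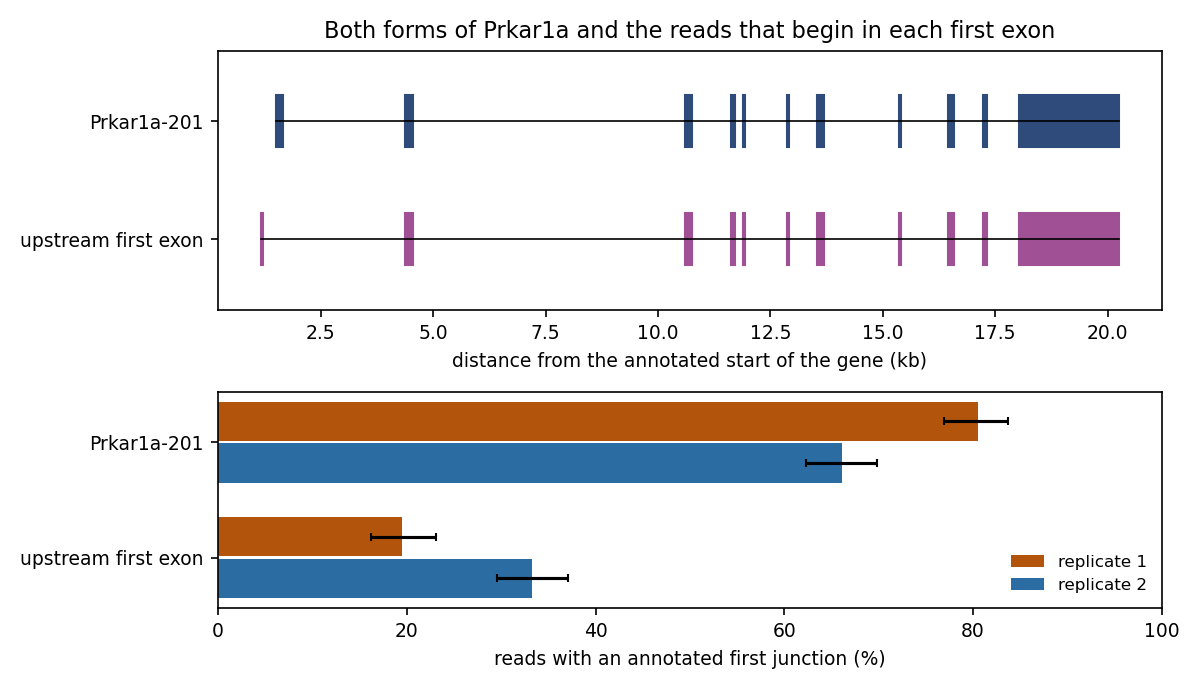
Exons (boxes) of Prkar1a-201 and of the model with the upstream first exon by distance from the annotated gene start in kb, above the share of reads with an annotated first junction that begin in each, by library, with exact Clopper-Pearson 95% intervals. The upstream exon held 19.5% of such reads in replicate 1 and 33.2% in replicate 2.

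The bases just ahead of the Prkar1a-201 start are shown because they hold the one full cyclic AMP response element found in the promoter windows of these genes. The element, TGACGTCA, reads the same on both strands and is known as the site that CREB binds. RefSeq promoter windows (GRCm38.p6, 300 bases around an annotated start) were found for 8 of the 10 genes, 21 windows in all, and 2 overlapping windows of Prkar1a held it, against 1.79% of 32851 windows of all genes searched on both strands. Its first 5 letters alone, TGACG, were in 8 of the 21 windows and in 20.8% of all windows. The element is in capitals, 13 bases before the start of Prkar1a-201.
Prkar1a (chr11:109650699-109650920, plus): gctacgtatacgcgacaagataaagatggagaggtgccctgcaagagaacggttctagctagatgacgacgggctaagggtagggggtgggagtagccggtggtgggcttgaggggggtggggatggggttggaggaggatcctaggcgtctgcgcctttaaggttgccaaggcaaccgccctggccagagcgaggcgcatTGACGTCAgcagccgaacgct
The element (109650900 to 109650907) lies 275 bases past the end of the upstream exon, so it falls within the first intron of reads that begin there. A match of these letters is a description of the sequence and not a bound site.

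The catalytic subunits Prkaca (Cα) and Prkacb (Cβ) are close relatives that phosphorylate the same motif. Their most-read forms have coding regions of 1053 bases each, identical at 80.2% of positions. The coding bases of their first exons are shown because the first exon is where Prkacb forms differ from each other. Capitals mark the 10 of 46 positions where the 2 genes differ.
Prkaca-201 (chr8:83973187-83973232, plus): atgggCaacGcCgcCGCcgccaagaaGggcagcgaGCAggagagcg
Prkacb-202 (chr3:146812638-146812683, minus): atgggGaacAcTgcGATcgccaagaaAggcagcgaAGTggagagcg
Prkacb-203 (chr3:146769934-146769940, minus): atgaatg
Prkacb-204 (chr3:146770516-146770525, minus): atgggcttgt
After the first exon, the coding bases of Prkacb-202, Prkacb-203, Prkacb-204 and Prkacb-201 are the same 1007 bases.

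Prkaca (chromosome 8, 83972993 to 83996443, plus strand) had 59 reads in replicate 1 and 8 in replicate 2, at 69.5 CPM (52.9 to 89.7) and 14.7 CPM (6.33 to 28.9). It was higher in replicate 1 by a log2 ratio of 2.17 (Fisher's exact test, adjusted p = 5.50e-06), and by 3.04 with the length trend removed (exact binomial test, adjusted p = 1.35e-11). All 56 and 8 of its reads with an annotated first junction began in the exon of Prkaca-201, and none in that of Prkaca-202. A processed pseudogene, Prkaca-ps1, had no read in either library.

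Prkacb (chromosome 3, 146729574 to 146812990, minus strand) ran the other way, with 33 reads in replicate 1 and 103 in replicate 2, at 38.9 CPM (26.8 to 54.6) and 189 CPM (154 to 229). It was lower in replicate 1 by a log2 ratio of -2.25 (Fisher's exact test, adjusted p = 5.76e-17), and by -1.03 with the length trend removed (exact binomial test, adjusted p = 0.00061). The first exon of Prkacb-202 began 18 of 20 reads in replicate 1 and 70 of 88 in replicate 2. The first exon of Prkacb-203 began 1 and 10, that of Prkacb-204 began 1 and 4, and that of Prkacb-201 began 0 and 3.

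Prkaca therefore held 59 of 92 catalytic subunit reads in replicate 1, or 64.1% (53.5 to 73.9), and 8 of 111 in replicate 2, or 7.21% (3.16 to 13.7). On reads per kilobase the share was 77.3% and 12.9%. The mean of the share of reads, 35.7% ± 40.3 (SD, n = 2), has a spread larger than itself, so these libraries give no common value for the balance of Cα and Cβ. The type I share of regulatory reads was 60.2% and 61.3% in the same libraries, or 61.0% and 55.0% on known models alone.

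Pde8a (chromosome 7, 81213596 to 81334533, plus strand) encodes a cyclic AMP phosphodiesterase known to restrain corticosterone output in the mouse adrenal. It had 35 reads in replicate 1 and 5 in replicate 2, at 41.2 CPM (28.7 to 57.3) and 9.17 CPM (2.98 to 21.4). The level was higher in replicate 1 by a log2 ratio of 2.05 (Fisher's exact test, adjusted p = 0.00066), and by 3.51 with the length trend removed (exact binomial test, adjusted p = 2.72e-10). However, few of these reads covered the gene: the known form Pde8a-201, of 22 exons and 3802 bases, held 4 reads in replicate 1 and 1 in replicate 2. In replicate 1, 28 of 35 reads were prefix matches, which begin with the first exons and stop early. The most read of these had 8 exons and 1159 bases, stopped at 81302292 and held 14 reads, and models of 9 and 3 exons held 6 and 5. The length trend was set by the annotated 3802 bases and not by these shorter structures. A processed pseudogene on the opposite strand within the gene, Gm7180, had 34 reads in replicate 1 and 0 in replicate 2.

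Creb1 (chromosome 1, 64532645 to 64604548, plus strand), the transcription factor that PKA phosphorylates, had the fewest reads, 11 in replicate 1 and 5 in replicate 2. Its levels of 13.0 CPM (6.47 to 23.2) and 9.17 CPM (2.98 to 21.4) did not differ detectably at this depth (log2 ratio 0.46, Fisher's exact test, adjusted p = 0.681). Only 1 read of replicate 1 and none of replicate 2 had a structure with a complete annotated Creb1 coding region. The Creb1 length of 8364 bases, used for the length trend and for levels per kilobase, rests on 1 known read.

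The order of the genes depended on whether levels were divided by transcript length. Since each read was taken as 1 molecule, plain CPM needs no such division, and the order per kilobase is an alternative. On plain CPM, Prkar1a (686) and Prkar2b (505) stood above Mrap (244) and Prkar1b (104) in replicate 1. On CPM per kilobase of annotated transcript, Mrap was highest in replicate 1 (244), ahead of Prkar1a (204), Prkar2b (150) and Mc2r (44.8). In replicate 2 the order began with Prkar1a (361), Prkar2b (279), Prkar1b (119) and Prkacb (43.5), with Mrap (25.7) and Mc2r (23.6) after them. At the low end stood Creb1, at 1.55 and 1.10, by the length of its 1 known read. Neighbours in the order per kilobase were not always apart. In replicate 1 the Poisson intervals overlapped between Mrap and Prkar1a, from Mc2r through Prkar1b to Prkaca, between Pde8a and Prkacb, and between Prkar2a and Creb1. In replicate 2 they overlapped between Prkacb and Mrap, between Mrap and Mc2r, and from Prkaca through Prkar2a and Pde8a to Creb1.

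The ratio between the libraries followed transcript length over all genes. All 10 genes passed the minimum of 10 reads summed over both libraries. On total reads 8 of the 10 differed, 4 higher and 4 lower in replicate 1, where 64.4% of the 9879 genes tested differed, 27.9% higher and 36.6% lower. The median log2 ratio was -0.02 over the 10 genes and -0.38 over all genes tested. Under TMM scaling, which moved that median to 0.06, the split over all genes was 3338 higher and 2731 lower, against 2752 and 3611 on total reads, and that of the 10 genes stayed at 4 and 4. With a running median over length removed, 5 of the 10 differed (Prkar1a, Prkar2b, Prkaca and Pde8a higher, Prkacb lower), where 41.8% of 9166 genes did. Prkar1a and Prkar2b changed direction by this step, as did Mc2r and Prkar2a, which did not pass there. The direction held for Mrap, Prkaca, Pde8a, Prkar1b and Prkacb, of which Mrap and Prkar1b no longer passed. The count of differing genes among the 10 was thus not far from the background on either scale.

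**Figure D4:**
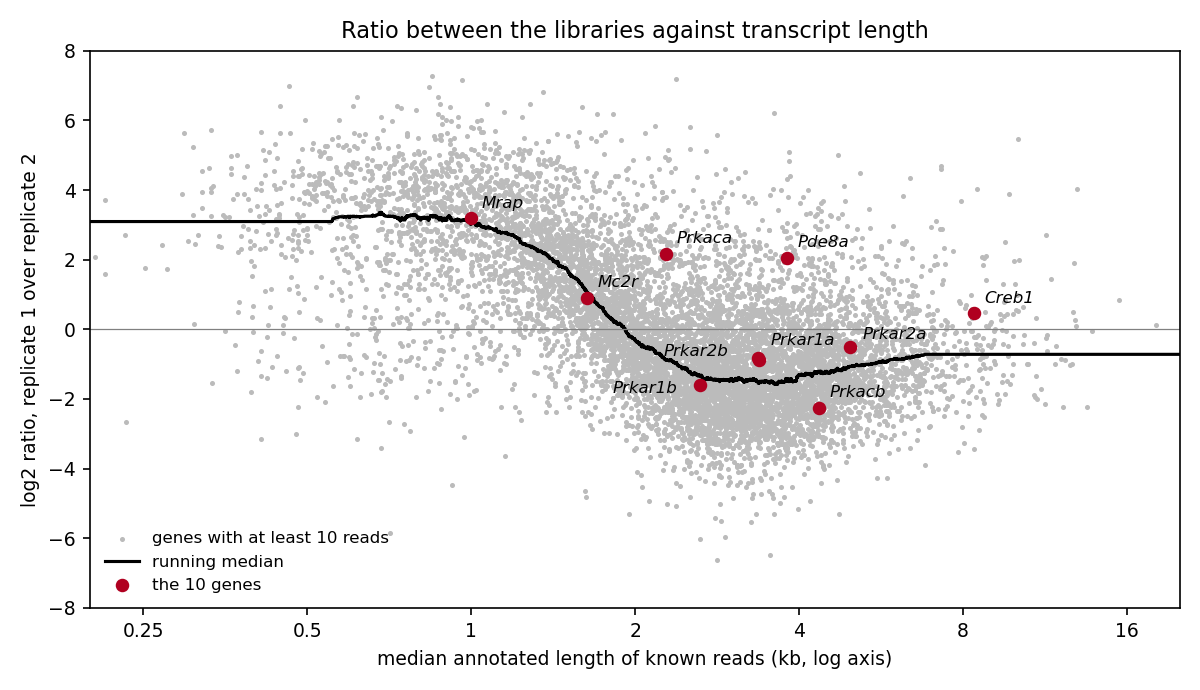
Log2 ratio of replicate 1 over replicate 2 for genes with at least 10 reads, within the range of the axes, against the median annotated length of its known reads in kb (log axis), with the running median in black. Mrap and Mc2r lie near the median of genes of their length, Prkaca and Pde8a lie above it by 3.04 and 3.51, and Prkacb lies below it by 1.03 on the log2 scale.

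Known structures held 1098 of 1520 reads in replicate 1, or 72.2% (69.9 to 74.5), and 1128 of 1514 in replicate 2, or 74.5% (72.2 to 76.7), a mean of 73.4% ± 1.60 (SD, n = 2). Without Prkar1a, the gene with the most reads, the shares were 71.9% and 83.2%. Structures with the complete coding region of an annotated form took 80.9% of reads in replicate 1, against 91.9% in replicate 2. Genomic reads, which lie within a gene without a matching splice structure, made up 115 reads of replicate 1, or 7.57% (6.29 to 9.01), against 20 of replicate 2, or 1.32% (0.809 to 2.03). Single genomic models of at least 5 reads were seen in replicate 1 at Prkar2b (37 reads), Mc2r (21), Prkar1a (16), Prkacb (10), Prkar1b (8) and Prkar2a (5). In replicate 2, 1 at Prkar2b had 5. Such models of a single exon were not matched between the libraries. All genomic reads of replicate 2 numbered 12 at Prkar2b, 5 at Mc2r, 2 at Creb1 and 1 at Prkar1b. Prkar1a, Prkacb and Prkar2a had 0 there. Reads of a single exon numbered 133 and 33, and prefix matches 87 and 10. In Prkar2b alone, prefix matches numbered 50 in replicate 1 and 3 in replicate 2, of which 34 and 1 stopped after 7 exons. Of 203 structures in all, 115 had a single read and 36 were in both libraries. Single-exon structures other than known ones were counted apart in each library, so they could not be among the 36. Structures with unannotated combinations of known splice sites (NIC) or with unannotated splice sites (NNC) numbered 81, of which 5 were in both libraries. The most read of them was a Prkar1b structure of 11 exons, with 3 and 5 reads.

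**Figure D5:**
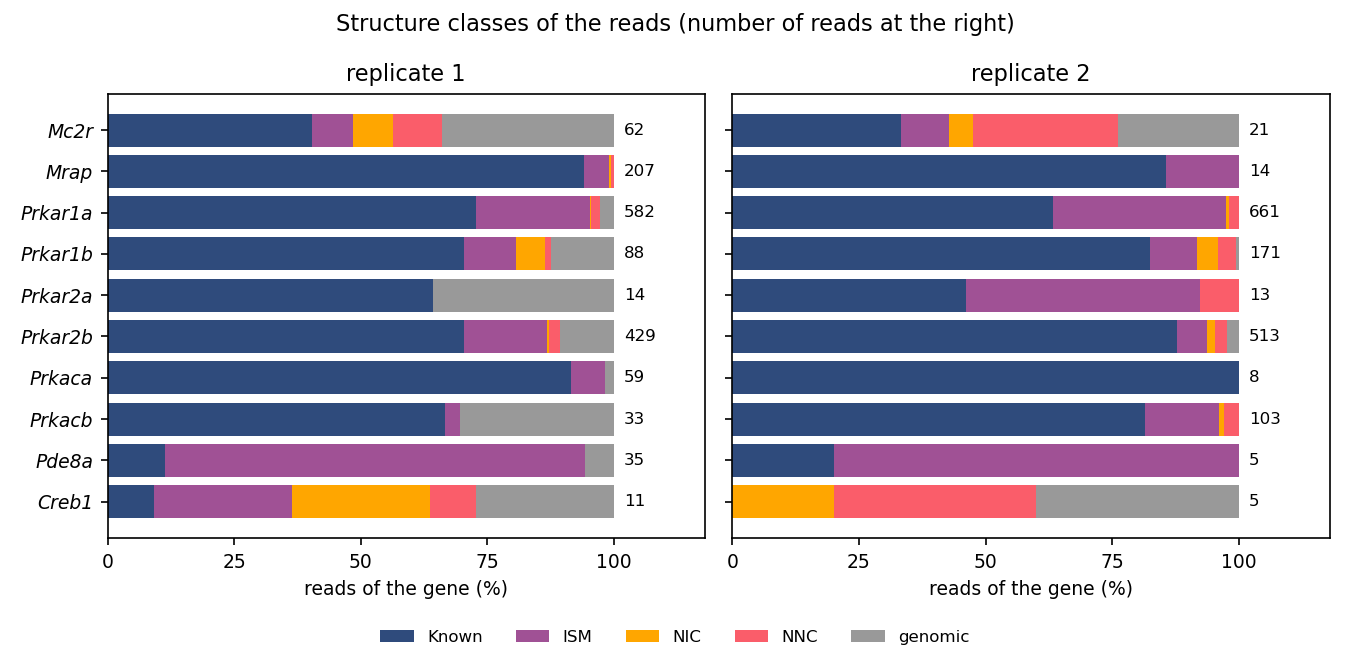
Share of the reads of each gene by structure class (known, ISM, NIC, NNC and genomic, the last meaning within the gene without a matching splice structure), with the number of reads at the right of each bar. Known structures held 94.2% of Mrap reads in replicate 1, whereas Pde8a had 82.9% ISM reads there and Creb1 had 1 known read.

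The use of annotated forms was compared in the 4 genes with at least 20 reads of known, NIC or NNC structure in each library. Prkar2b-202, of 11 exons and 3378 bases, held 268 of 313 such reads in replicate 1 (85.6%) and 441 of 471 in replicate 2 (93.6%), and this differed (Fisher's exact test, adjusted p = 0.00506). Prkar2b-201 had 33 reads in replicate 1 and 9 in replicate 2. It codes for the same 1248 bases and has 12 exons and 1657 bases. Prkar1a-201 held 97.5% and 95.9% (adjusted p = 0.652 by Fisher's exact test), Prkar1b-201 held 91.2% and 91.6% (adjusted p = 1) and Prkacb-202 held 81.8% and 75.0% (adjusted p = 0.923). The test left out ISM models, among them the Prkar1a model with the upstream first exon (104 and 207 reads). It therefore could not compare the use of the 2 first exons of Prkar1a. Prkar2b was thus the 1 of 4 genes that differed, where 9.93% of 2186 genes differed. Prkar2b-201, the shorter form, had the larger share in replicate 1, the library of shorter transcripts, than in replicate 2, and the part of length in this difference was not tested.

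Beyond the 10 genes, a list of 65 genes of the same pathway was read alongside. A read in at least 1 library was seen for 55, and 33 reached the minimum for the test. Of these, 20 differed, 5 higher and 15 lower in replicate 1, which is 60.6% of those tested, beside the 64.4% of all genes. Under TMM scaling 9 were higher and 13 lower. After the length step 20 of 31 differed, again 5 higher and 15 lower, which is 64.5%, beside the 41.8% of all genes on that scale. Some of these lower calls rest on short known structures, as given below. No other melanocortin receptor was read: Mc1r, Mc3r, Mc4r and Mc5r had 0 reads. A count of 0 allows up to 3.53 CPM in replicate 1 and 5.50 CPM in replicate 2 at 3 counts, and the exact Poisson interval reaches 4.35 and 6.77 CPM. Mrap2, the relative of Mrap, had 1 read in each library.

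Gnas, which encodes the stimulatory G protein that couples MC2R to adenylyl cyclase, was read 756 and 504 times, at 891 and 924 CPM, and did not pass the test on total reads (log2 ratio -0.05, Fisher's exact test, adjusted p = 0.598). With the length trend removed it was lower in replicate 1 (-0.73, exact binomial test, adjusted p = 8.18e-17). The cyclases read most were Adcy3 (14 and 22 reads) and Adcy9 (4 and 21), both lower in replicate 1 on total reads (adjusted p = 0.0165 and 2.65e-05, Fisher's exact test). Neither passed with the length trend removed (-0.08 and -1.54, adjusted p = 0.939 and 0.0528, exact binomial test). Adcy10 had no read. Of the kinase inhibitors and anchors, 5 of 9 tested genes differed on total reads, 2 higher and 3 lower, beside the 64.4% of all genes. After removal of the length trend there were 2 higher and 5 lower, beside 41.8%. Akap7, Akap11 and Akap13, picked out for this reason, passed as lower on that scale, and Prkx no longer did (adjusted p = 0.386, exact binomial test). The lengths used for these 3 anchors, from known reads only, were 397, 682 and 1269 bases, and their calls depend on them. The inhibitor gene Pkig had 132 reads in replicate 1 and 1 in replicate 2 (adjusted p = 3.69e-26, Fisher's exact test). The anchor Akap9 had 106 and 16 (adjusted p = 1.44e-09) and the anchor Akap8 had 25 and 79 (adjusted p = 1.66e-13). The other lower genes, picked out after their values were seen, were Prkx and Akap1, and Akap3 and Akap4 had no read.

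Among cyclic AMP phosphodiesterases, 1 of 6 tested genes differed on total reads, beside the 64.4% of all genes. This was Pde4a, named here for that reason (6 and 17 reads), which did not pass with the length trend removed (-0.53, exact binomial test, adjusted p = 0.536). The most read were Pde10a (63 and 43 reads), Pde2a (61 and 25) and Pde8b (18 and 14), none of which passed (adjusted p = 0.820, 0.0875 and 0.659, Fisher's exact test), whereas Pde1c, Pde3b and Pde11a had no read. With the length trend removed, Pde2a (-2.61) and Pde8b (-2.51) were lower in replicate 1 (adjusted p = 7.22e-10 and 3.61e-05, exact binomial test). Pde8b, the relative of Pde8a, thus had the opposite sign to it on that scale, whereas on total reads it was at -0.26 and did not pass. The contrast depends on the lengths used. The trend taken out was 2.24 for Pde8b, set by 1338 bases, and -1.46 for Pde8a, set by 3802 bases that few of its reads covered. Among relatives of CREB, Crem, whose products include a cyclic AMP-induced repressor, had 223 and 91 reads and was higher in replicate 1 on total reads (log2 ratio 0.65, adjusted p = 0.00048, Fisher's exact test). With the length trend removed it was lower (-2.48, exact binomial test, adjusted p = 3.59e-31). Atf1 had 10 and 41 reads and was lower (adjusted p = 9.61e-09, Fisher's exact test), and the coactivator gene Crebbp had 25 and 12 and did not pass (adjusted p = 0.574), though it was higher with the length trend removed (1.82, exact binomial test, adjusted p = 0.00088). The third gene that differed in this group, Crtc3, had 16 and 2 reads and is named because it did. The other cyclic AMP effectors, Rapgef4 (41 and 79 reads) and Rapgef3 (5 and 22), were lower in replicate 1 on total reads (adjusted p = 1.91e-08 and 2.76e-05, Fisher's exact test). On the length-removed scale Rapgef4 was at -4.83 (adjusted p = 1.20e-62, exact binomial test), while Rapgef3 did not pass (-1.27, adjusted p = 0.0969). The lengths used for that step, from known reads only, were 694 bases for Rapgef4, 957 for Crem and 639 for Pde2a. Whether such short known structures stand for all reads of these genes was not tested, and their length-removed ratios depend on it.

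Of genes known to answer to cyclic AMP or PKA, Star, which delivers cholesterol for steroid synthesis, had 11962 reads in replicate 1 and 15435 in replicate 2. Its log2 ratio was -1.01 on total reads and 0.28 with the length trend removed, and it passed on both scales in opposite directions. The early response gene Nr4a1 had 139 and 542 reads and was lower in replicate 1 on both scales (log2 ratio -2.59, adjusted p = 1.62e-101 by Fisher's exact test, and -1.46 with the length trend removed). Junb had 354 and 180 reads and was higher on total reads (log2 ratio 0.34, Fisher's exact test, adjusted p = 0.0195). It did not pass with the length trend removed (0.06, exact binomial test, adjusted p = 0.798). All 7 tested genes of this group differed on total reads, 1 higher and 6 lower in replicate 1, beside the 64.4% of all genes. Once length was allowed for 5 did so, 1 higher (Star) and 4 lower, beside 41.8%.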

How the data were processed

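For each library the authors deposited counts, as whole reads assigned to every transcript model, together with the structures of the models. Per the text files they deposited, reads were counted on mm10 with GENCODE M21, and per the file headers TALON is the source of unannotated models. Aligner, platform and strandedness: not given in the sources used here. No normalization had been applied, and models without a read are not listed.

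Counts were summed over the models of a gene and scaled to the library total (CPM). Genes with at least 10 reads summed went into Fisher's exact test, two-sided (Benjamini-Hochberg over all genes, threshold 0.05), with log2 ratios taken as replicate 1 over replicate 2, 1 CPM being added to each. With TMM (edgeR 4.0.16) or DESeq2 (1.42.0) scaling, or a running median of 501 genes over length removed, a two-sided exact binomial test was used. These tests compare 2 libraries, not conditions, and take reads as independent. Isoform use was tested on the most-read known, NIC or NNC model against the others, at 20 or more such reads per library. Python 3.11.15, scipy 1.17.1 and R 4.3.3 were used. On simulated counts the gene test found 69% of 2-fold and 100% of 4-fold changes. The changed genes had at least 50 reads summed in the data and were raised in replicate 1. The simulated counts held counting error only and no length trend. Each percentage pools 100 changed genes and is not split by read count. It therefore does not give the power for genes with few reads, such as Prkar2a, Pde8a and Creb1.

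Depth was 848782 and 545229 reads. Transcript sequences and gene positions are from GENCODE M21, promoters from RefSeq. The genes, lists and tests were chosen with earlier results of these data known. All 10 genes are named, as are the 3 most-read genes of each pathway group and those with no read, while models with at least 5 reads are named or counted by class. The pathway list holds 65 further genes of cyclic AMP signalling, read from the same tests. The sum of Mc2r with opposite-strand reads was added after seeing the data.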

Additional observations from a re-analysis of the deposited data

Results flagged for a closer look

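Reads on the strand opposite a gene stood above the 3 counts that a count of 0 allows at 7 of the 10 genes, in models that the counts of the genes leave out. In replicate 1 they numbered 149 at Mrap, 87 at Mc2r, 50 at Prkar1a, 17 at Prkaca, 11 at Prkar1b and 4 at Pde8a. In replicate 2 they numbered 6 at Prkar2b, 5 at Mrap and 5 at Mc2r. The spliced ones were at Mc2r, except for 1 read at Mrap in replicate 2. Those over an annotated exon of their gene numbered 165 of 323 in replicate 1 and 15 of 21 in replicate 2.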

How the results depend on the processing

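No paired analysis was possible because the series has 1 group. With the length trend removed, the log2 ratio reversed for Mc2r (-0.16), Prkar1a (0.68) and Prkar2b (0.64), Mrap (0.15, adjusted p = 0.812) and Prkar1b (-0.24, adjusted p = 0.322) no longer passed the exact binomial test, 5 of the 10 genes differed and 3829 of all genes did. The cause was not tested. Mc2r also did not pass on reads of known models (adjusted p = 0.062) or of known, NIC and NNC models (adjusted p = 0.139) in Fisher's exact test. A minimum of 50 reads left 3978 of 4772 genes called, of fewer tested, and 7 of 7 of the 10 genes that reached it. TMM and DESeq2 scaling kept 8 of the 10 genes called, beside 61.4% and 60.2% of all 9879 genes tested. The sign of Prkar2a, which did not pass, turned under DESeq2 scaling. The type I share of regulatory reads had a mean of 58.0% on known models, 58.1% on known, NIC and NNC models and 62.1% per kilobase, and the known share of reads a mean of 77.5% without Prkar1a. Leaving out each library in turn gave 0.179% to 0.278% for the summed share, 7.21% to 64.1% for the Prkaca share, 60.2% to 61.3% for the type I share and 72.2% to 74.5% for the known share. The isoform call of Prkar2b held at minimums of 10 and 50 reads, on known models and in a chi-square test over models. With 5 to 14 reads, Prkaca, Pde8a and Creb1 in replicate 2 and Prkar2a in both libraries allow only wide intervals.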
